A study of Mus musculus with 6 samples.

Results

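Interferon response genes were examined with and without overexpression of A20 in TM3, a cell line from mouse testis labelled as Leydig cells, the testosterone-producing cells between the tubules. The set held 82 protein-coding genes of 54532 genes in the deposited count table. A gene entered by its symbol: the Ifi, Ifit, Ifitm, Oas, Gbp, Irf and Irgm families, Stat2, Ifih1, the interferon receptors, and a short list of antiviral genes such as Isg15, Rsad2, Bst2 and Ddx58. The rule itself uses symbols and the annotated biotype, not measured values. RNA was sequenced from 3 control libraries of TM3 cells whose genotype is given as WT and 3 libraries of TM3 cells with the genotype A20 overexpression. Both groups grew in DMEM/F12 with fetal bovine and horse serum, and no interferon, infection or other stimulus is named. The labels do not give how A20 was brought in, what the control cells received, or whether replicates are independent cultures or clones. The p-values therefore measure the spread between these samples, which may be technical.

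Interferons act through paired receptor chains, IFNAR1 with IFNAR2 for type I interferons and IFNGR1 with IFNGR2 for interferon gamma. Receptor-bound JAK kinases then phosphorylate STAT proteins, among them STAT2, which with its partners and IRF9 binds the interferon-stimulated response element (ISRE), while STAT pairs bind the gamma-activated site (GAS). The genes so induced encode proteins that sense viral RNA, degrade it, block its translation or tag proteins with ISG15. A20, encoded by Tnfaip3, is a ubiquitin-editing enzyme known for restraining NF-kB signalling, and it also restrains the signalling that leads from RNA sensors to interferon.

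Tnfaip3 stood at 30.9, 11.9 and 15.2 CPM (counts scaled to a common library total) in control replicates 1, 2 and 3, and at 41.0, 33.7 and 43.6 CPM in the A20-overexpressing replicates 1, 2 and 3. The groups did not overlap, but edgeR's quasi-likelihood test with all 6 libraries gave an adjusted p of 0.331 (log2 fold change 1.08 ± 0.30, approximate SE). Without control replicate 1 the adjusted p was 0.000256 (log2 fold change 1.51). Transcript from an A20 construct adds to this count if it matches the mouse gene.

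Control replicate 1 stood apart from the other 5 libraries. Its log2 CPM correlated with theirs at a Pearson r of 0.862 to 0.875 across 13044 genes, which are not independent replicates, against 0.969 to 0.992 among the others. The 7 Leydig cell markers summed to 2039 CPM in it and to 3.97 to 7.86 CPM in the others, where Hsd3b1, Cyp17a1 and Lhcgr had no count, so the markers of the labelled cell type were close to 0 in 5 of the 6 libraries. Of 8 macrophage markers, Adgre1 and Ptprc had no count in any library. The sum, most of it Cd68, was 7.36, 34.2 and 36.6 CPM in control replicates 1, 2 and 3 and 24.5 to 44.3 CPM with A20 overexpression. The 4 endothelial markers summed to 36.7 CPM in control replicate 1 and to 3.31 to 5.11 CPM in the others, with Cdh5 at 538 counts in it and 0 to 5 counts elsewhere. Calls below are therefore counted with all 6 libraries and without control replicate 1. For single members, fits are not printed in each case. Total counts ran from 13841287 to 16917979 per library, and 3 counts, the limit that a count of 0 allows, are worth 0.177 to 0.217 CPM.

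At least 1 CPM was reached in all 6 libraries by 31 of the 82 members and in control replicate 1 alone by 17. A further 28 stayed under 1 CPM in each library, 6 of them without any count, and the remaining 6 reached it in some other set of libraries. The members together made up 0.157% of counts in control replicate 1, 0.116% and 0.122% in control replicates 2 and 3, and 0.111%, 0.120% and 0.108% with A20 overexpression. Per length, in the deposited FPKM, Ifitm3 was the most abundant with a mean of 179 FPKM over the 6 libraries, followed by Bst2 at 117 FPKM and Ifitm2 at 84.5 FPKM. IFITM proteins block virus entry at membranes, and BST2 (tetherin) holds budding virus particles at the cell surface. Ifi27 (33.2 FPKM), Irf2bp2 (33.1 FPKM) and Ifi202b (22.5 FPKM) came next. Isg15, the ubiquitin-like modifier, was at 16.5 FPKM in that library and at 0.887 and 2.18 FPKM in the other controls. In bulk RNA, fewer cells expressing a gene and less RNA per cell cannot be told apart. The plot of FPKM by library shows these levels.

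**Figure D1:**
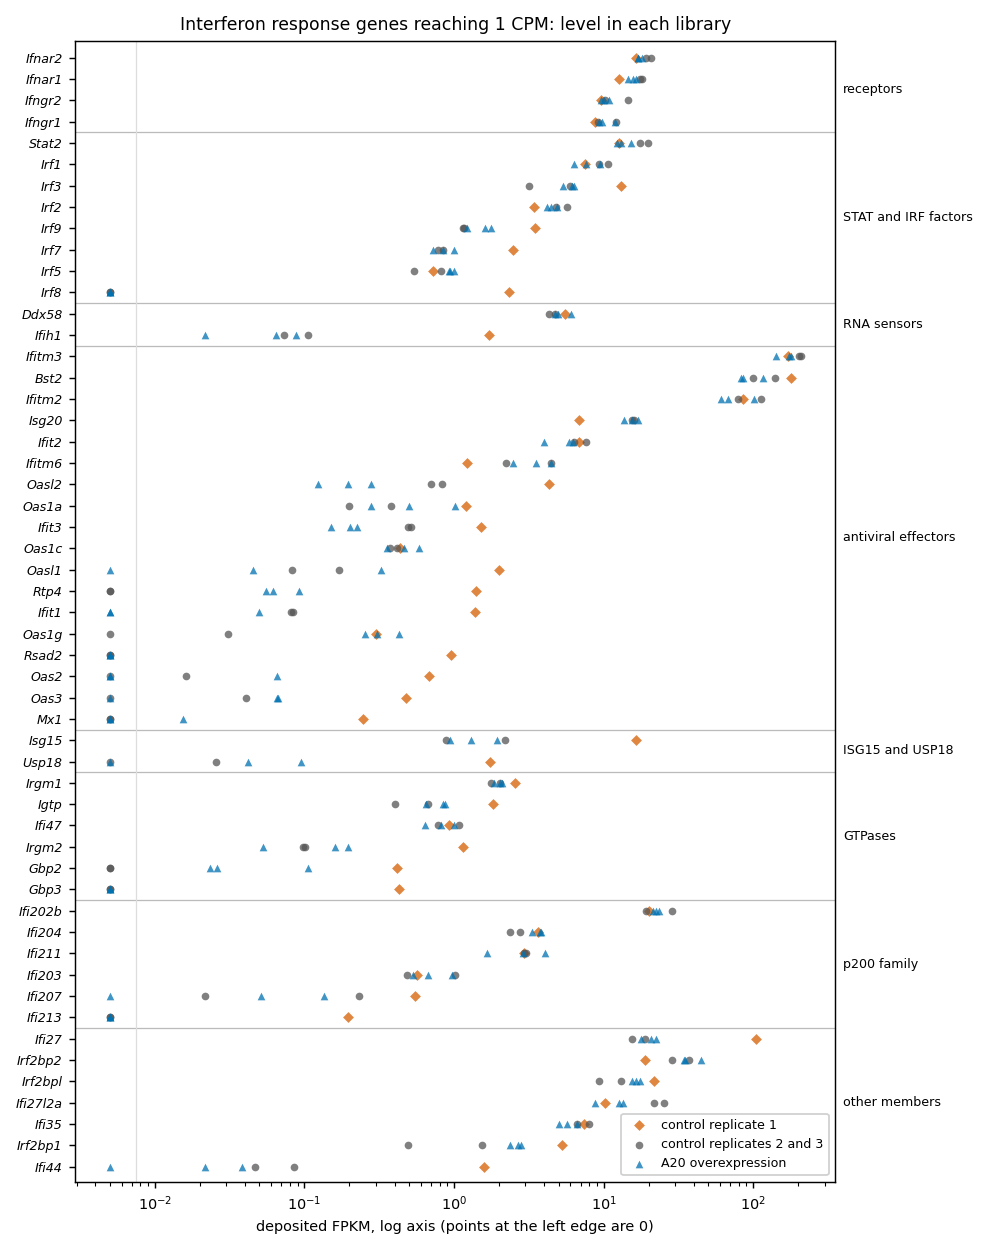
Deposited FPKM (log axis) of 53 members that reached 1 CPM in at least 1 library, by role; diamonds are control replicate 1, circles control replicates 2 and 3, triangles the 3 A20-overexpressing libraries, and points at the left edge are 0. Receptors lie together in all libraries, whereas Irf8, Rsad2 and Ifih1 stand far to the right in control replicate 1.

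The interferons themselves were close to absent as RNA. Of 21 interferon genes looked up (type I, Ifng, Ifnl2 and Ifnl3), 20 had no count in any library, and the remaining one, Ifnl3, had 1 count, in control replicate 1. A count of 0 allows up to 0.177 to 0.217 CPM per library, counting error only.

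All 4 receptor chains were expressed. Ifnar1 stood at 83.9, 99.9 and 105 CPM in control replicates 1, 2 and 3 and at 98.5, 84.9 and 93.3 CPM with A20 overexpression. Ifnar2 stood at 60.7, 64.5 and 64.1 CPM in control and at 56.6, 54.7 and 60.1 CPM with A20 overexpression. Each A20-overexpressing library lay below each control for Ifnar2, and the difference was small (log2 fold change -0.12 ± 0.15, edgeR adjusted p = 0.819). Ifngr1 and Ifngr2, the chains for interferon gamma, ranged from 25.7 to 33.9 CPM and from 36.5 to 51.2 CPM over the 6 libraries, and their groups overlapped. None of the 4 receptor genes passed edgeR with all 6 libraries (adjusted p 0.804 to 0.959) or without control replicate 1 (0.362 to 0.919).

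STAT proteins carry the signal from the receptor to the nucleus. Stat2, a part of the ISRE-binding complex (ENSMUSG00000040033, GRCm38 chromosome 10, 128270559 to 128292849, plus strand), stood at 84.0, 110.1 and 105 CPM in control and at 73.3, 87.9 and 77.1 CPM with A20 overexpression. Control replicate 1 lay within the A20-overexpressing range, and the other controls lay above it. With all 6 libraries the log2 fold change was -0.31 ± 0.19 (edgeR adjusted p = 0.613). Without control replicate 1 it was -0.47 ± 0.14 (edgeR adjusted p = 0.0664), which also missed the threshold. DESeq2 gave an adjusted p of 0.0469 for the same 5 libraries.

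The IRF genes encode the other DNA-binding factors of the pathway. Irf1, induced early by interferon gamma, stood at 33.4, 39.7 and 37.1 CPM in control and at 30.4, 36.6 and 25.4 CPM with A20 overexpression. Irf2, a repressor of many of the same sites, ranged from 28.1 to 39.2 CPM. Irf9, the DNA-binding part of the ISRE complex, stood at 20.7, 5.79 and 6.36 CPM in control and at 8.69, 6.45 and 9.47 CPM with A20 overexpression. The Irf9 locus overlaps Rnf31 on the same strand, at a mean of 38.8 CPM, so its counts can hold reads of that gene. Irf3, which carries the signal from RNA sensors to interferon genes, was at 50.1, 10.2 and 20.7 CPM in control and at 18.4, 21.1 and 21.3 CPM with A20 overexpression.

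Irf7, which amplifies type I interferon, was at 10.4, 2.997 and 2.96 CPM in control and at 2.68 to 3.78 CPM with A20 overexpression; its locus overlaps Phrf1 (58.8 CPM) on the opposite strand. Irf5 was at 2.35, 1.46 and 2.38 CPM in control and at 2.90, 2.68 and 2.72 CPM with A20 overexpression, without overlap, and overlaps Tnpo3 (141 CPM) on the opposite strand. Control replicate 1 thus held the highest values of Irf3, Irf7 and Irf9, and the lowest of Irf2. None of the 6 IRF genes tested passed edgeR with all 6 libraries (adjusted p 0.679 to 0.960) or without control replicate 1 (0.261 to 0.932). Irf8, a factor best known from myeloid cells, had 281 counts (18.3 CPM) in control replicate 1 and no count in the other 5, at least 86.0-fold higher than the limit of 3 counts in each of the other controls. Of the macrophage markers, Cd68 (3.71 CPM against 19.3 to 38.7 CPM) and Lyz2 were lowest in that same library. Itgam was highest, with 13 counts there and 0 in the other 5. Cd14, Csf1r and Aif1 lay within the range of the others, and the part of other cell types in the Irf8 counts was not tested.

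Both cytosolic RNA sensors were measured. Ddx58, which encodes RIG-I, was at 43.2, 28.6 and 33.7 CPM in control and at 42.7, 32.6 and 34.8 CPM with A20 overexpression, with overlapping groups. Ifih1, which encodes MDA5, was at 15.5 CPM in control replicate 1 and at 0.177 to 0.867 CPM in the other 5. The Ifih1 log2 fold change of -3.45 ± 1.22 with all 6 libraries (edgeR adjusted p = 0.435) shrank to -0.63 ± 0.74 without control replicate 1 (adjusted p = 0.675).

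With all 6 libraries, edgeR called 0 of the 40 members tested higher and 0 lower, beside 0.00749% of all 13350 genes tested in each direction and 0.0150% in either. The smallest adjusted p of a member was 0.269, for Oasl2. The other 42 members did not pass the expression filter, 27 of them under 1 CPM in each library. At an unadjusted p under 0.05, 5 members were lower and 0 higher, against 5.86% and 4.19% of all genes. Those 5, Oasl2, Ifit3, Ifih1, Bst2 and Isg15, each had their highest value in control replicate 1. Ifit3, with 6, 6 and 4 counts under A20 overexpression, passed the expression filter through the control libraries. Its place among the lower members, here and below, is therefore given as a description. DESeq2 called 1 member, Oasl2, and limma-voom called 0, and the share of all genes called by either is not given here. The members' median log2 fold change was -0.17, beside -0.03 over all genes tested, and 28 of 40 (70%) lay below 0, against 54.0% of all genes. Groups did not overlap for 5 members that lay lower with A20 overexpression (Oasl2, Ifit2, Ifit3, Ifitm3 and Ifnar2), 12.5% against 9.27% of all genes, and for 1 that lay higher (Irf5) against 7.62%. The lower share lay above that of all genes and the higher, 1 of 40, below it, and neither difference was tested.

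Without control replicate 1, edgeR called 2 of 40 members lower and 1 higher, beside 2.68% and 1.92% of all 13658 genes tested, or 3 of 40 against 4.60% in either direction. Oasl2 and Ifi27l2a fell. The 1 called higher was Oas1g, which passed the expression filter through the A20-overexpressing libraries, so its call is given as a description. The median over members was -0.06, beside -0.00 over all genes, and 24 of 40 (60%) lay below 0, against 50.3% of all genes. At an unadjusted p under 0.05 there were 4 members lower and 4 higher, against 11.2% and 10.4% of genes and 21.6% in either direction. Groups did not overlap for 10 of 40 members that lay lower (25%) and 6 of 40 that lay higher, against 17.2% and 20.7% of genes. Ifit3 is among the lower and Oas1g among the higher, each with the limit on its filter given above. Ifitm1 is also among the lower, with 12 and 13 counts in control replicates 2 and 3 and 1, 5 and 11 with A20 overexpression. It passed the filter mainly through those controls, so its place is given as a description. The share without overlap that lay lower was above that of all genes and the one that lay higher was below it, and neither difference was tested.

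**Figure D2:**
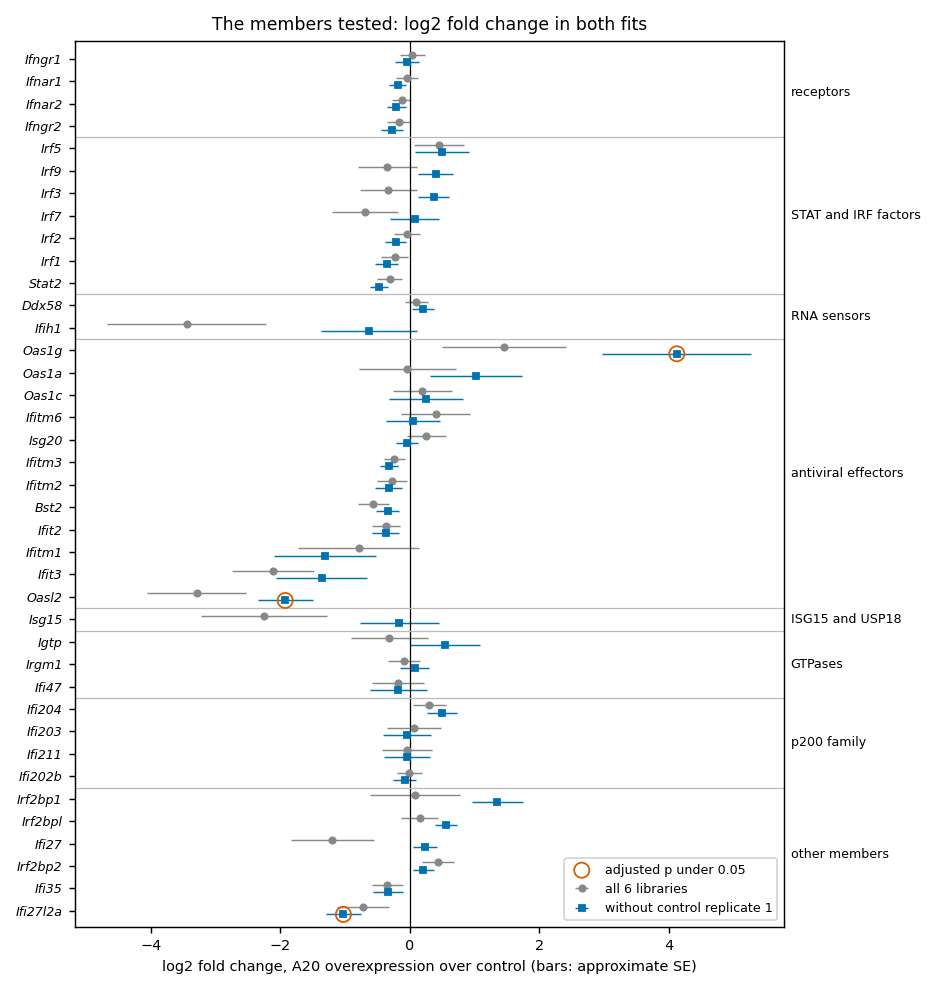
Log2 fold change of A20 overexpression over control for 39 of the 40 members tested, by role, with approximate SE; grey circles use all 6 libraries, blue squares leave out control replicate 1, and rings mark an adjusted p under 0.05 in edgeR. Ifih1 and Isg15 lie well below 0 in grey and nearer to 0 in blue (-0.63 and -0.16), while Oasl2 stays below 0 in both.

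Oasl2, a ubiquitin-like relative of the 2′-5′-oligoadenylate synthetases (ENSMUSG00000029561, GRCm38 chromosome 5, 114896936 to 114912234, plus strand), had the smallest adjusted p of the members in both fits. Oasl2 measured 30.6, 4.95 and 4.48 CPM in control replicates 1, 2 and 3, against 1.77, 0.767 and 1.26 CPM with A20 overexpression. Each A20-overexpressing library lay below each control, and control replicate 1 lay far above the rest. Control averaged 13.3 CPM ± 14.9 (SD, n = 3), and A20 overexpression averaged 1.27 CPM ± 0.503 (SD, n = 3). The log2 fold change was -3.29 ± 0.77 with all 6 libraries (edgeR adjusted p = 0.269) and -1.92 ± 0.42 without control replicate 1, a 3.79-fold fall (edgeR adjusted p = 0.0161). The call was lost when control replicate 2 (adjusted p = 0.0579), A20-overexpressing replicate 2 (0.0779) or A20-overexpressing replicate 3 (0.0609) was left out as well. It was also lost in both FPKM fits that held the gene (limma adjusted p 0.0657 and 0.0912). Over the 17 settings run from all 6 libraries the adjusted p of Oasl2 ranged from 0.000522 to 0.99. Over the 15 settings run without control replicate 1 it ranged from 0.00109 to 0.0912 and passed in 10. Oasl2 was lower under A20 overexpression in each setting.

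Ifi27l2a, which encodes a small interferon-induced protein of the IFI27 family (ENSMUSG00000079017, GRCm38 chromosome 12, 103442167 to 103443680, minus strand), had 5.28, 10.9 and 10.2 CPM in control and at 4.08, 5.69 and 6.23 CPM with A20 overexpression. Control replicate 1 lay within the A20-overexpressing range. Without it the log2 fold change was -1.02 ± 0.27 (edgeR adjusted p = 0.0402), against -0.72 ± 0.40 with all 6 libraries (adjusted p = 0.574). The call was lost when control replicate 2 or any 1 of the A20-overexpressing libraries was left out as well (adjusted p 0.0912 to 0.182), and over 16 settings it passed in 7 (adjusted p 0.0173 to 0.182). Its relative Ifi27 stood at 169, 21.3 and 27.96 CPM in control and at 26.2, 32.3 and 30.3 CPM with A20 overexpression, and was 6.87-fold above the other controls in control replicate 1.

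Oas1g, a 2′-5′-oligoadenylate synthetase gene (GRCm38 chromosome 5, 120876142 to 120887613, minus strand), rests on few counts. It had 12, 0 and 1 counts in control and 17, 11 and 9 counts with A20 overexpression. Control replicate 1, at 0.782 CPM, lay within the A20-overexpressing range of 0.596 to 1.00 CPM. Without it the adjusted p was 0.0492 in edgeR, and the ratio per total count, 37 counts against 1, was 21.9 with a 95% interval of 3.69 to 887 (exact, counting error only). The call was lost without control replicate 2, control replicate 3 or A20-overexpressing replicate 3 (adjusted p 0.263, 0.0551 and 0.0829), and without either of the other A20-overexpressing libraries the gene was not tested. It was also lost with DESeq2 (0.103), library size alone (0.0564), the replicate block (0.0737) and both FPKM fits that held the gene, and over 12 settings it passed in 4 (adjusted p 0.0366 to 0.263). Its paralog Oas1a stood at 2.54, 0.349 and 0.722 CPM in control and at 0.946, 1.85 and 0.530 CPM with A20 overexpression, and reads can be split between such close copies.

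**Figure D3:**
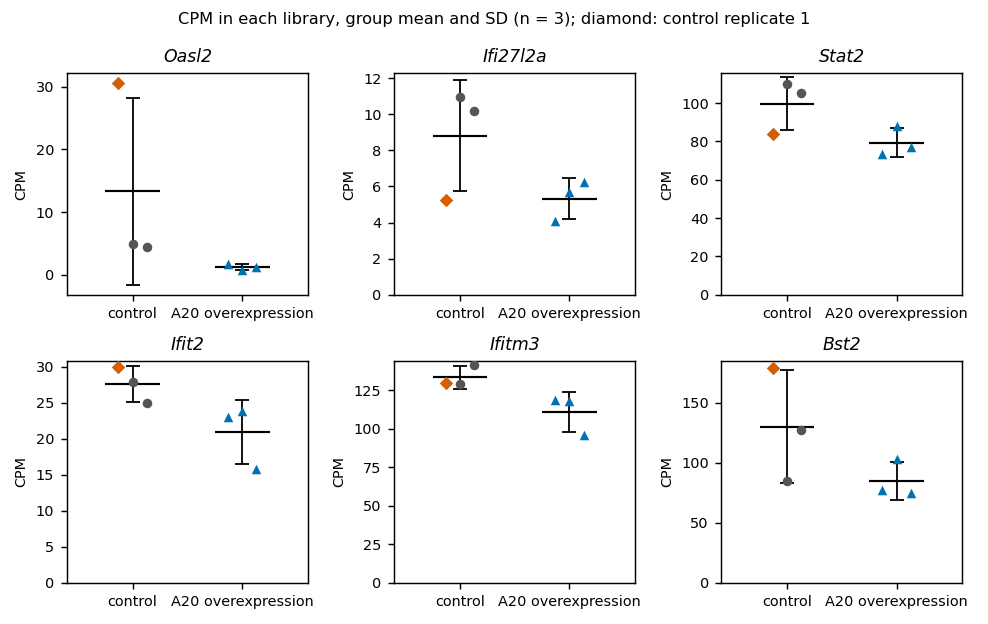
CPM per library for 6 members, with the group mean and SD (n = 3); diamonds are control replicate 1, circles the other controls, triangles A20 overexpression. Oasl2, Ifit2 and Ifitm3 show no overlap between the groups, and in Stat2 and Ifi27l2a control replicate 1 lies with the A20-overexpressing libraries.

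Of the more abundant antiviral effectors, Ifit2, whose protein family binds viral RNA, stood at 29.9, 27.9 and 24.998 CPM in control and at 22.99, 23.9 and 15.8 CPM with A20 overexpression. Ifit2 values did not overlap, and the log2 fold change was -0.37 ± 0.21 with all 6 libraries and -0.37 ± 0.20 without control replicate 1 (edgeR adjusted p = 0.595 and 0.295). Ifitm3 stood at 129, 129 and 141 CPM in control and at 119, 118 and 96.1 CPM with A20 overexpression, again without overlap. Its log2 fold change was -0.24 ± 0.16 with all 6 libraries and -0.32 ± 0.14 without control replicate 1 (edgeR adjusted p = 0.646 and 0.209).

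Its neighbour and close paralog Ifitm2 ranged from 48.7 to 74.1 CPM in control and from 40.1 to 64.9 CPM with A20 overexpression. Bst2 stood at 179, 84.6 and 127 CPM in control and at 77.1, 103 and 74.5 CPM with A20 overexpression, overlapping through control replicate 2. Isg20, an exonuclease, was lowest in control replicate 1, at 14.1 CPM, and at 25.4 to 31.4 CPM in the other 5. Ifit3, a partner of IFIT proteins, was at 2.93, 0.836 and 0.867 CPM in control and at 0.355, 0.383 and 0.265 CPM with A20 overexpression. Its groups did not overlap, with the limit on its filter given above. Ifit3 was not past edgeR with all 6 libraries (adjusted p = 0.389) or without control replicate 1 (0.271). Of 12 antiviral effectors tested, 10 did not pass without control replicate 1, Oasl2 was called lower and Oas1g, with the limit on its filter given above, higher, against 4.60% of all genes called in either direction. With all 6 libraries 0 of the 12 passed edgeR.

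The GTPases act on vacuoles that hold pathogens. Irgm1, a regulator of the family, stood at 16.5, 11.0 and 10.3 CPM in control and at 11.8, 10.5 and 12.2 CPM with A20 overexpression. Igtp stood at 4.10, 0.767 and 1.37 CPM in control and at 1.77, 1.66 and 1.32 CPM with A20 overexpression, and Ifi47 ranged from 1.59 to 2.67 CPM over the 6 libraries. The 3 GTPases tested did not pass edgeR in either fit (adjusted p 0.605 to 0.925). The 10 guanylate-binding proteins summed to 4.82 CPM in control replicate 1 and to 0.144 to 0.729 CPM in the other libraries. The p200 family includes DNA-binding sensors. Ifi202b ranged from 32.5 to 45.2 CPM and Ifi211 from 2.87 to 7.29 CPM. Ifi204 stood at 14.5, 7.88 and 9.83 CPM in control and at 13.4, 11.5 and 13.6 CPM with A20 overexpression. Ifi203 ranged from 3.25 to 6.502 CPM, and none of the 4 passed edgeR in either fit (adjusted p 0.216 to 0.995). Genes of this cluster are close paralogs among which reads can be split.

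The symbol pattern also took 3 IRF2-binding proteins, which are transcriptional co-regulators. Irf2bpl stood at 99.5, 35.7 and 53.6 CPM in control and at 63.5, 69.9 and 67.5 CPM with A20 overexpression. Irf2bp1 stood at 16.1, 1.25 and 4.26 CPM in control and at 7.74, 6.32 and 7.35 CPM with A20 overexpression. Both lay above control replicates 2 and 3 with A20 overexpression, and below control replicate 1. Without control replicate 1 their adjusted p in edgeR was 0.0616 and 0.0582. Irf2bp2 was at 106 CPM in control replicate 1 and at 146 to 223 CPM in the other 5.

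Some members were well above their level elsewhere in control replicate 1. At least 1 CPM was reached by 17 of the 82 members (20.7%) in this library and in none of the other 5, against 4.12% of all 22046 protein-coding genes. Being 1 library, it carries no replicate check. Rsad2, which encodes the antiviral enzyme viperin, had 4.63 CPM and no count elsewhere. Usp18, which removes ISG15, was at 5.41 CPM against 0 to 0.265 CPM, and Ifi44 was at 10.7 CPM against 0 to 0.488 CPM. Isg15 itself was at 13.9, 0.627 and 1.66 CPM in control and at 0.709, 0.958 and 1.46 CPM with A20 overexpression, 12.1-fold above the other controls in control replicate 1.

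The synthetase genes followed, with Oas2 at 3.39 CPM, Oas3 at 3.78 CPM and Oasl1 at 5.80 CPM in control replicate 1 and at most 0.830 CPM in any other library. Ifit1 had 4.10 CPM in control replicate 1 against 0 to 0.217 CPM in the others. The remaining members of the 17 were Gbp2, Gbp3, Irgm2, Ifih1, Irf8, Ifit3, Mx1, Rtp4, Ifi207 and Ifi213. Of the 17, 15 did not pass the expression filter. Among the 40 members tested, control replicate 1 was over 2-fold above the mean of the other controls for 13 (32.5%) and over 2-fold below for 4, against 16.3% and 7.47% of all genes. It was the highest of the 6 libraries for 19 of 40 (47.5%), against 40.7% of all genes, and the lowest for 5, against 21.7%. The Leydig and endothelial marker sums were also highest in this library, as given above. So was the Sertoli sum, 4.04 CPM, of which Dhh made up 3.84 CPM, while Sox9 and Fshr had no count in any library. The plasmacytoid dendritic cell and lymphocyte sum was highest there as well, at 180 CPM. Bst2, itself a member, made up 179 CPM of it, so that sum adds no separate marker of those cells. The macrophage sum and the endothelial marker Egfl7 were lowest in control replicate 1, and what set this library apart was not tested.

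Promoters were read for 65 of the 82 members from RefSeq (GRCm38.p6), in a window from 250 bases before to 50 after the start site. An ISRE core, written GAAANNGAAA and searched on both strands, was in the window of 34 of the 65 (52.3%), against 1079 of 27025 genes (3.99%). A GAS core, TTCNNNGAA, which reads the same on both strands, was in 18 (27.7%), against 2582 genes (9.55%). Of the 17 members that reached 1 CPM in control replicate 1 alone, 13 had a window (not Usp18, Mx1, Oas2 and Rtp4), and 10 of these held an ISRE core and 2 a GAS core. Irf8, Oasl1 and Ifi44 held no ISRE core. Of the 31 members at 1 CPM or more in all 6 libraries, 27 had a window, and 9 held an ISRE core and 12 a GAS core. A match is a description of letters, not of binding.

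**Figure D4:**
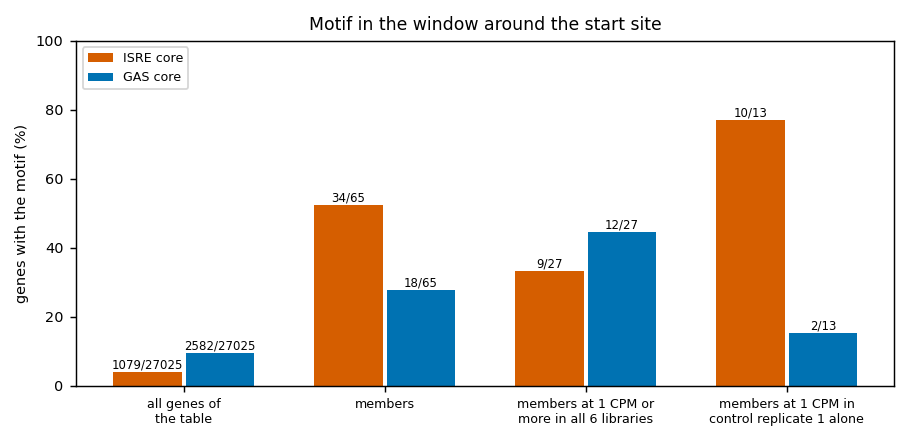
Share of genes (%) with an ISRE core or a GAS core in the 300-base window around the start site, for all genes of the promoter table and 3 sets of members; numbers on the bars are genes with the motif over genes with a window. The ISRE core was in 10 of 13 members present in control replicate 1 alone and in 9 of 27 present in all libraries.

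The stretches below lie before the RefSeq start site of members described above and are written along the gene's strand, with ISRE and GAS cores in capitals, reverse-strand ISRE cores included. The first set is of genes high in control replicate 1. Isg15 (chr4:156200839-156200938, minus strand) held 3 overlapping ISRE cores, Ifit1 (chr19:34640759-34640858, plus strand) and Ifit3 (chr19:34583349-34583448, plus strand) held 2 each, and Irf8 (chr8:120736168-120736267, plus strand) held 2 GAS cores.
Isg15: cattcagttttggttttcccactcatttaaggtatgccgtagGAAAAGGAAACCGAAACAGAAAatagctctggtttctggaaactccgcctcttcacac
Ifit1: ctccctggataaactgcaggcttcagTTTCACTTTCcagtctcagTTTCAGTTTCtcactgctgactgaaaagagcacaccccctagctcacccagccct
Ifit3: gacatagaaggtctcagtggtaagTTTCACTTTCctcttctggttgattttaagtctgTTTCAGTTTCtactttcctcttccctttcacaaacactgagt
Irf8: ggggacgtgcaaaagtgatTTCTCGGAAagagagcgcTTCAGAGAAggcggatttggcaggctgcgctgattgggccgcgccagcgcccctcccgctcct

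Igtp (chr11:58199476-58199555) and Irgm2 (chr11:58214867-58214966), both on the plus strand, are neighbours whose stretches matched at 78 of 80 bases (97.5%), with a GAS core and an ISRE core side by side. Igtp stood at 0.767 to 1.77 CPM and Irgm2 at 0.192 to 0.729 CPM outside control replicate 1, where they stood at 4.10 and 4.76 CPM. Their loci overlap on the same strand, so reads may be shared. Bst2 (chr8:71537543-71537642, minus strand) joined a GAS core to 2 overlapping ISRE cores and was among the most abundant members in each library. Stat2 (chr10:128270248-128270347, plus strand) held 1 ISRE core.
Igtp: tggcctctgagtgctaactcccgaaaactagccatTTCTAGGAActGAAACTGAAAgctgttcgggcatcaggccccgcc
Irgm2: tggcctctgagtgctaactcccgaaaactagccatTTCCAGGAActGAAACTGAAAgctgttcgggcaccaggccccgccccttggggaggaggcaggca
Bst2: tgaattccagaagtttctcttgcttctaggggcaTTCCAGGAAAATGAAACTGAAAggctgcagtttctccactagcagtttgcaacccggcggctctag
Stat2: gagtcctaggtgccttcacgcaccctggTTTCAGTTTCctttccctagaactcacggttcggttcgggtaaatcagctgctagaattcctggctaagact

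Oasl2 and Oas1g, the called genes of the OAS family, are shown with Oas1a, which was not called in either fit. Oas1a (chr5:120907526-120907605, minus strand) and Oas1g (chr5:120887614-120887693, minus strand) matched at 77 of 78 aligned bases (98.7%) and each held 2 overlapping ISRE cores next to the start site. Oasl2 (chr5:114896684-114896933, plus strand) held neither core in its window, which says only that these letters are not there. Oasl2 and Oas1g lay on opposite sides of control replicates 2 and 3 with A20 overexpression, as given above.
Oas1a: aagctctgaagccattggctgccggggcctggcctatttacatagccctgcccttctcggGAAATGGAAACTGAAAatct
Oas1g: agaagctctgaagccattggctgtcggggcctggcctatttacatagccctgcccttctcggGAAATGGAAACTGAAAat
Oasl2: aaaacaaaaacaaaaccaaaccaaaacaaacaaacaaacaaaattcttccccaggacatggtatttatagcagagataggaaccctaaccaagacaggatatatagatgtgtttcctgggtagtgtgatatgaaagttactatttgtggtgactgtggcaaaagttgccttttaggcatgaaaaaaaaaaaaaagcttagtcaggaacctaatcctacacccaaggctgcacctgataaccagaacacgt

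Other genes of the pathway were described by list. Of 13 receptor-proximal genes, such as Jak1, Tyk2 and Socs1, 0 passed edgeR in either fit. Jak1, a receptor-bound kinase and the most abundant of them per length, stood at 318, 201 and 179 CPM in control and at 218, 207 and 201 CPM with A20 overexpression, overlapping. Herc6, the ligase that attaches ISG15 in mice, stood at 18.1, 2.79 and 1.73 CPM in control and at 1.24, 0.958 and 1.06 CPM with A20 overexpression, without overlap (adjusted p = 0.391 with all 6 libraries and 0.214 without control replicate 1). Of 13 genes tested that act upstream of interferon, including Mavs and Tmem173, 0 passed in either fit. Tbk1, the kinase that activates IRF3, stood at 81.9, 92.6 and 98.7 CPM in control and at 76.9, 75.6 and 66.9 CPM with A20 overexpression, without overlap (edgeR adjusted p = 0.585 with all 6 libraries and 0.0905 without control replicate 1). Of 29 other interferon targets tested, 0 passed with all 6 libraries, and 1, B2m, was lower without control replicate 1, where 2.68% of all genes were. B2m, which encodes beta-2 microglobulin of MHC class I, stood at 417, 343 and 251 CPM in control and at 206, 203 and 166 CPM with A20 overexpression (edgeR adjusted p = 0.0298 without control replicate 1 and 0.310 with all 6). The medians of these 3 lists lay between -0.11 and -0.05 on the log2 scale with all 6 libraries and between -0.03 and 0.07 without control replicate 1. In list order, 1, 1 and 1 genes tested lay lower without overlap with all 6 libraries (Herc6, Tbk1 and B2m). Those higher numbered 0, 0 and 2 (Lgals3bp and Shisa5), where all genes gave 9.27% lower and 7.62% higher. Without control replicate 1, 2, 1 and 2 lay lower and 2, 3 and 6 higher, against 17.2% and 20.7% of genes. These differences were not tested.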

How the data were processed

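RNA sequencing of 6 libraries was used. The deposited counts are whole numbers per gene from the authors, with the build GRCm38 (mm10) per the submitters' processing notes. The aligner, counter and strand setting are not given in the sources used here, so opposite-strand overlaps could not be told apart. The authors also deposited FPKM per gene, used for levels between genes and in alternatives. Counts were tested with edgeR 4.0.16 (R 4.3.3; TMM, expression filter by group, robust quasi-likelihood, Benjamini-Hochberg over all genes kept, threshold 0.05), with group as the only term. The approximate SE is the log2 fold change over the square root of F. Alternatives used DESeq2 1.42.0, limma 3.58.1, other scalings and filters, a replicate block and leaving out each library. The edgeR fit was also run on simulated libraries drawn from a common expression profile, and the outcome is not given here. No simulated library was made as unlike the rest as control replicate 1, so that run cannot check the fit for such a library. Motifs and intervals were computed in Python 3.11.15 with SciPy 1.17.1. FPKM alternatives took log2(FPKM + 1) or log2(FPKM + 0.1).

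Members, lists and roles were chosen with earlier results of these data known. Named were the receptors, STAT and IRF genes, called members, up to 4 of highest FPKM per role and members of at least 1 CPM without overlap. The members close to absent outside control replicate 1, Ifit3, Ifitm1, Irf2bp1, Oas1a, Herc6, Lgals3bp, Shisa5 and the printed promoters were singled out after their values were seen. Promoters of 17 members were not used here. Values of 1 member are not reported here. Intervals and floors cover counting error only, as reads carry no molecular identifiers.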

Additional observations from a re-analysis of the deposited data

How the results depend on the processing

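Apart from leaving out control replicate 1 alone, the share of all genes called under each alternative is not given here. The counts of members called in this section can therefore not be set against all genes. With all 6 libraries, DESeq2 called 1 member lower. Leaving out single libraries gave 0 to 1 members higher and 0 to 2 lower, the upper values without control replicate 1. The median log2 fold change of members went from -0.17 to -0.60 without the low-count filter, where 76 members entered in place of 40, and from -0.28 to -0.06 over single libraries left out. The Tnfaip3 log2 fold change ran from 0.88 to 1.51 over single libraries left out, past the threshold without control replicate 1 (1.51).

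With control replicate 1 left out, members higher and lower numbered 0 and 1 with library size alone, 3 higher without the low-count filter, 0 higher with the 1 CPM filter, 2 higher with DESeq2 (Irf2bp1 and Irf2bpl, not Oas1g), and 0 and 0 in each of the 3 fits of log2 FPKM. Leaving out a second library gave 0 to 3 members higher and 0 to 4 lower, the upper values without control replicate 3. Both 0 and 0 were found without control replicate 2, A20-overexpressing replicate 2 or A20-overexpressing replicate 3. With 1 control left, that control is assumed to vary like the other group. The median, -0.06, was -0.024 with library size alone, -0.018 without the low-count filter and -0.049 with the 1 CPM filter. It was -0.01955 without control replicate 2, and -0.16, -0.0805 and -0.12 without A20-overexpressing replicates 1, 2 and 3. The cause was not tested.

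Deviations of same-numbered libraries from their group mean correlated at 0.02, 0.10 and -0.04, and those of differently numbered libraries at -0.17 to 0.13. The control mean holds control replicate 1, which stood apart, so these values cannot tell whether replicate numbers pair the samples. With the replicate block, 0 members were called with all 6 libraries, and 2 higher and 1 lower (Irf2bp1, Irf2bpl and Oasl2) without control replicate 1, with a median of -0.16. For single named members, 4 of 520 alternative values with all 6 libraries came past the threshold, and without control replicate 1 8 of 482 came past it and 22 fell short of it. No called value changed sign.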

Other observations

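Genes that match the symbols but are not annotated as protein-coding were left out of the 82. Ifi30, a lysosomal thiol reductase gene listed as a processed transcript, stood at 46.5, 44.5 and 40.1 CPM in control and at 30.6, 37.1 and 29.3 CPM with A20 overexpression, without overlap. Mx2, listed as a polymorphic pseudogene, stood at 3.65 CPM in control replicate 1 and at 0 to 0.209 CPM in the other 5 libraries, like its neighbour Mx1 (1.04 CPM against 0 to 0.0591 CPM). Oas1b, also a polymorphic pseudogene in this annotation, stood at 2.74, 0.976 and 1.16 CPM in control and at 0.414, 0.830 and 1.32 CPM with A20 overexpression.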
